A study of Mus musculus with 4 samples.

Results

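The genes described are those of MHC class II antigen presentation, 9 of the 19465 genes in the feature lists, taken by symbol: H2-Aa, H2-Ab1, H2-Eb1, Cd74, Ciita, Ctss, H2-DMa, H2-DMb1 and H2-Oa. All 9 were found once, and their raw UMI counts (unique molecular identifiers, each counting 1 captured molecule) were read from every spot and section. The rule itself uses no measured value, but the members were chosen with earlier results of these data known. All 9 passed the filter on low counts in every comparison.

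The data were Visium spatial transcriptomes of hearts from wild type FVB/NJ mice, cut from formalin-fixed, paraffin-embedded tissue. Every mouse was immunized with MyHCα peptide, from the alpha heavy chain of cardiac myosin, and every one received both immune checkpoint inhibitors (ICIs), an anti-PD-1 and an anti-CTLA-4 antibody. In 2 sections, here the antibody sections, the mice had also been given an IL-17A neutralizing antibody, and the labels record that myocarditis was mitigated. In the other 2, the ICI-alone sections, the ICIs were given by themselves and the labels record that myocarditis developed. Both groups hold 1 section of batch 1 (replicate 1) and 1 of batch 2 (replicate 2). Age, sex, dose and time are not given in the sources used here, no unimmunized or ICI-free heart was compared, and the labels do not tell whether the sections of a group came from different mice. The p-values given here therefore measure the spread between these sections, which may be technical. The question the design puts is how the hearts differ when IL-17A is neutralized during checkpoint blockade.

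MHC class II molecules are heterodimers that show peptides from endocytosed protein to CD4+ T cells. In the mouse H2-Aa encodes the alpha chain and H2-Ab1 the beta chain of I-A, and H2-Eb1 encodes the beta chain of I-E; Cd74, the invariant chain, blocks the groove of new dimers and steers them to endosomes, where cathepsin S (Ctss) trims it to a short fragment. H2-DMa and H2-DMb1 encode subunits of the H2-M peptide exchanger, which releases that fragment and edits the bound peptides, and H2-Oa encodes a subunit of H2-O, which restrains H2-M. Ciita is the coactivator that switches the class II genes on, constitutively in dendritic cells and B cells and after interferon gamma in macrophages and other cells. In the heart these genes are known from resident and recruited macrophages and dendritic cells, and endothelial cells can be brought to express them.

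Class II promoters are known for an upstream module that holds an X box, bound by the RFX complex, and a Y box, an inverted CCAAT bound by NF-Y, on which the Ciita protein assembles. The table of RefSeq promoters (GRCm38.p6, the C57BL/6J reference and not FVB/NJ) runs from 250 bases before to 50 bases after the start, and 6 of the 9 genes had an entry. Shown 5′ to 3′ on the gene's strand are H2-Aa (chr17:34287774-34288073, minus strand), H2-Eb1 (chr17:34305617-34305916, plus strand), H2-DMb1 (chr17:34152941-34153240, plus strand) and H2-Oa (chr17:34092129-34092428, plus strand), which carry the motifs searched, and Ctss (chr3:95526536-95526835, plus strand), the gene whose whole-section level differed between the groups in the test given further on. Capitals mark the Y box core ATTGG, on either strand, and the X box.
H2-Aa: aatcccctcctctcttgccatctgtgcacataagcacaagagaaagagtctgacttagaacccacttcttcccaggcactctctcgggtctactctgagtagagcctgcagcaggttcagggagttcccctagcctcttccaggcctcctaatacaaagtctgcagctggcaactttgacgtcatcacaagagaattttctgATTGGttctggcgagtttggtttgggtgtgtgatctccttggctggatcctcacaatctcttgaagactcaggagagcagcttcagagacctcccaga
H2-Eb1: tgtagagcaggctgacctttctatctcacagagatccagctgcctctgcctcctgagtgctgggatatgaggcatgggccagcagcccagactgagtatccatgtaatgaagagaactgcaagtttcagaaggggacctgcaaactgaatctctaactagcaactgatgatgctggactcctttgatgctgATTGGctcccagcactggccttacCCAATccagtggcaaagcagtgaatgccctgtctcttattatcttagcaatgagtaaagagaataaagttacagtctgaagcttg
H2-DMb1: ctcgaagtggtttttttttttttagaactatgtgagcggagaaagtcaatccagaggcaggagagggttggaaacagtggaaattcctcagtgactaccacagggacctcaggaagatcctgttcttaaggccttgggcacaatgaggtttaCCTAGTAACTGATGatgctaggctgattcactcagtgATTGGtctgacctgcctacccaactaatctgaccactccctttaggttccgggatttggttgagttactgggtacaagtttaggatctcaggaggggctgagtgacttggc
H2-Oa: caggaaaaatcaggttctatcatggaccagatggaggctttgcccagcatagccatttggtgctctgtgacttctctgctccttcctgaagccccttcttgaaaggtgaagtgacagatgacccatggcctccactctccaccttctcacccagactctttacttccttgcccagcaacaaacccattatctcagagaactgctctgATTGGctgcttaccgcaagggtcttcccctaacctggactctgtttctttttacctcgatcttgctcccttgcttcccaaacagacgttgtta
Ctss: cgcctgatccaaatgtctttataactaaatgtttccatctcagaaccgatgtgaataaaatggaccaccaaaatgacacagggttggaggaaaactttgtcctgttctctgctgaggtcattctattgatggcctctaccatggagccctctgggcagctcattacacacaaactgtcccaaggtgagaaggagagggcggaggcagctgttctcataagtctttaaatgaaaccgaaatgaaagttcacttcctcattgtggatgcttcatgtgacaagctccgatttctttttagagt

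The Y box core stood 48 bases before the start in H2-Aa, 59 in H2-Eb1, 61 in H2-DMb1 and 43 in H2-Oa, and H2-Eb1 held another one on the opposite strand 35 bases before the start. H2-DMb1 also held a match to the X box pattern, CCTAGTAACTGATG, 98 bases before the start, and the 2 motifs did not overlap. H2-Eb1 held actagcaactgatg, which departs from the pattern at its first base alone and was not counted. Any other X box that departs from the pattern would be missed likewise. The remaining gene with an entry, H2-DMa, had 2 promoters, of which 1 held a Y box core 198 bases before the start. The Ctss window held neither sequence. Among all 32851 promoters of the table, 37.4% held the Y box core, 0.195% the X box and 0.10% both. A match is a run of letters in the window and was not tested as a binding site.

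In RefSeq's gene table for GRCm38.p6 (mm10, as the submitters' processing notes name the build), 6 of the 9 genes lie in the class II region of chromosome 17. In the order of their positions these are H2-Oa (chr17:34092379-34095234), H2-DMa (chr17:34119693-34139101), H2-DMb1 (chr17:34153191-34160229), H2-Ab1 (chr17:34263227-34269418), H2-Aa (chr17:34282744-34287823) and H2-Eb1 (chr17:34305867-34316674). Ciita lies at chr16:10480014-10531064, Ctss at chr3:95526786-95556405 and Cd74 at chr18:60803849-60812652. All are annotated as protein-coding. The spot counts are per gene and do not separate exons, UTRs or alleles.

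The sections held 2604 and 2585 spots under tissue in the antibody group and 2503 and 3052 in the ICI-alone group, with 47882576 and 33005923 UMIs in the antibody group and 73167202 and 66255242 in the ICI-alone group. Levels are given as CPM, UMIs scaled to a total of 1000000 per section or class of spots, after TMM scaling unless stated. Each comparison has its own TMM scaling, so a level can differ slightly between comparisons. A spot is a small area of tissue that can hold several cells. All comparisons between groups used UMIs summed per section, 4 sections in all, and fewer cells of a type and less RNA per cell cannot be told apart in such sums. Heart identity was checked with 5 cardiomyocyte genes (Myh6, Tnnt2, Tnni3, Ryr2 and Pln), whose summed level was 48145 and 38041 in the antibody sections, against 33541 and 18785 in the ICI-alone sections (CPM). Macrophage markers (10 genes) summed to 1298 and 1859.8 in the antibody sections, against 2907 and 3316 in the ICI-alone sections, and 7 of the 10 were lower and 0 higher in the antibody sections. T cell markers (12 genes) summed to 177 and 172 in the antibody sections, against 163 and 136 in the ICI-alone sections, and dendritic cell markers (12 genes) to 410.2 and 417 in the antibody sections, against 393 and 452 in the ICI-alone sections. B cell markers (8 genes) summed to 36.1 and 50.3 in the antibody sections, against 45.3 and 37.1 in the ICI-alone sections, and fibroblast markers (6 genes) to 2010.0 and 2134 in the antibody sections, against 8147 and 16049 in the ICI-alone sections. No gene of these lists was at 0 in any whole section. Atrial-rich spots, with over 1% of their UMIs on 5 atrial genes, numbered 2 and 172 in the antibody sections, against 63 and 536 in the ICI-alone sections, and counted without Nppa they were found in antibody replicate 2 alone (163 spots). The sections shared 1670 barcodes, which are grid positions of the slide.

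Over whole sections Ctss was lower with the IL-17A antibody, and the other 8 genes did not pass the test. Ctss was the only gene of the 9 called. Ctss, the protease that trims the invariant chain, had 452 and 376 CPM in the antibody sections, against 833 and 1110.4 in the ICI-alone sections. Both antibody sections lay below both ICI-alone sections. Its means were 414 ± 53.5 CPM in the antibody sections and 972 ± 196 CPM in the ICI-alone sections (SD, n = 2 each), and the log2 fold change of antibody over ICI alone was -1.23 ± 0.27 (SE; edgeR's quasi-likelihood test, Benjamini-Hochberg adjusted p = 0.0347). In the same test 8.81% of the 18817 genes tested were lower in the antibody sections and 11.8% were called in either direction, so 1 of 9 is near that share. The Ctss call was lost without antibody replicate 1 (-1.37, adjusted p = 0.132), without antibody replicate 2 (-1.11, adjusted p = 0.207) and with only genes of at least 10 CPM tested (-1.07, adjusted p = 0.0547), with edgeR's quasi-likelihood test throughout, and adjusted p ranged from 3.22e-06 to 0.207 over all alternatives. DESeq2 called 5 of the 9 genes lower (Ctss, H2-Aa, H2-Ab1, Cd74 and H2-DMa), beside 17.2% of all genes with a DESeq2 adjusted p. Without ICI-alone replicate 2, H2-DMa was called as well (-0.78, adjusted p = 0.031, edgeR's quasi-likelihood test), with 0.0184 to 0.338 as the span of its adjusted p under the alternatives.

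The I-A chains and the invariant chain had lower values in both antibody sections without passing the test. H2-Aa had 1629 and 1929 CPM in the antibody sections, against 3702 and 3231 in the ICI-alone sections, a log2 fold change of -0.96 ± 0.33 (adjusted p = 0.0902, edgeR's quasi-likelihood test). H2-Ab1 had 1032 and 1265 CPM in the antibody sections, against 1999 and 1749.7 in the ICI-alone sections (-0.71 ± 0.29, adjusted p = 0.132, edgeR's quasi-likelihood test). Cd74 had 4340.3 and 4912 CPM in the antibody sections, against 7075 and 6927 in the ICI-alone sections (-0.60 ± 0.39, adjusted p = 0.291, edgeR's quasi-likelihood test). In each of these 3 genes the groups did not overlap, and the unadjusted 95% interval of the Cd74 change, -1.51 to 0.31, includes 0 while that of H2-Aa, -1.73 to -0.19, does not. Of the exchanger subunits, H2-DMa had 94.1 and 133 CPM in the antibody sections, against 196 and 164 in the ICI-alone sections (-0.66 ± 0.22, adjusted p = 0.0828, edgeR's quasi-likelihood test). H2-DMb1 had 150.0 and 203 CPM in the antibody sections, against 239 and 229 in the ICI-alone sections (-0.41 ± 0.21, adjusted p = 0.197, edgeR's quasi-likelihood test). Both lay lower in both antibody sections, H2-DMb1 by the narrower margin. By library-size scaling, 35.8% of 12915 genes were likewise lower in both antibody sections than in both ICI-alone sections.

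The transcriptional coactivator, the I-E chain and the H2-O subunit overlapped between the groups. Ciita had 72.3 and 133 CPM in the antibody sections, against 110.4 and 86.6 in the ICI-alone sections, so antibody replicate 2 was the highest section and antibody replicate 1 the lowest. H2-Eb1 had 14.9 and 20.6 CPM in the antibody sections, against 17.4 and 15.3 in the ICI-alone sections, and H2-Oa had 3.38 and 3.84 CPM in the antibody sections, against 4.26 and 3.06 in the ICI-alone sections. Both genes were sparse. In all, H2-Eb1 had 712 and 725 UMIs in the antibody sections, against 1160.0 and 1042 in the ICI-alone sections, and H2-Oa had 162 and 135 UMIs in the antibody sections, against 285 and 208 in the ICI-alone sections. Log2 fold changes were 0.056 ± 0.28 for Ciita, 0.12 ± 0.19 for H2-Eb1 and -0.023 ± 0.24 for H2-Oa (adjusted p of 0.896, 0.674 and 0.953, edgeR's quasi-likelihood test). Their 95% intervals, -0.61 to 0.72, -0.34 to 0.57 and -0.60 to 0.55, leave room for changes of either sign. With counts scaled by library size alone, 6 of the 9 genes were lower in both antibody sections than in both ICI-alone sections, as were 35.8% of 12915 genes, and 0 were higher without overlap, against 31.3% of genes. Across the 9 genes the median log2 fold change was -0.60, and over all genes tested it was 0.085.

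The 2 batches did not give the same picture for every gene. Ctss was -0.88 on the log2 scale within batch 1 and -1.56 within batch 2, and H2-Aa was -1.18 and -0.74. Cd74 was -0.70 and -0.50, H2-Ab1 -0.95 and -0.47, H2-DMa -1.06 and -0.30, and H2-DMb1 -0.67 and -0.17, all below 0 in both batches. For these genes, Ctss and H2-Aa that sign is no separate result. It follows from both antibody sections lying below both ICI-alone sections. Ciita turned, with -0.61 in batch 1 and 0.61 in batch 2, as did H2-Eb1 (-0.22 and 0.43) and H2-Oa (-0.33 and 0.33). With the batch number as a block pairing the sections, Ctss stayed the only one of the 9 called, while the genes called in all went to 3839, against 2229 without the block.

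**Figure D1:**
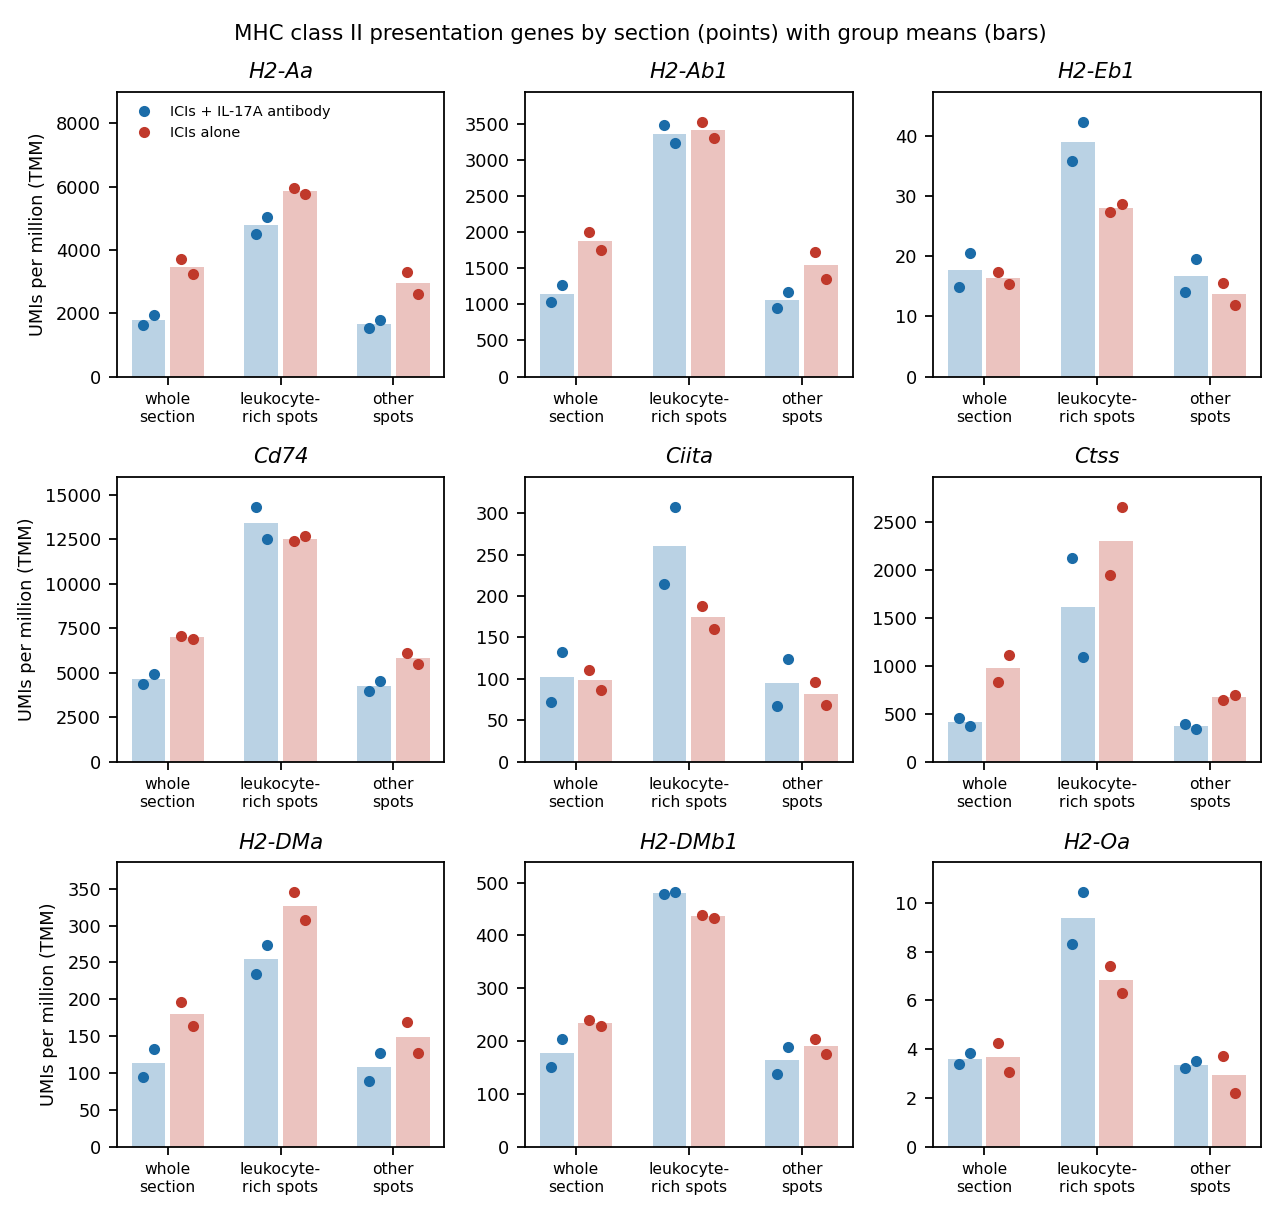
Level of each of the 9 genes in CPM (TMM-scaled) over whole sections, leukocyte-rich spots and other spots, 1 point per section and a bar for the group mean, antibody sections left of ICI-alone sections. Over whole sections both antibody points lie under both ICI-alone points for H2-Aa, H2-Ab1, Cd74, Ctss, H2-DMa and H2-DMb1, and the groups overlap for Ciita, H2-Eb1 and H2-Oa.

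Among genes that act around class II, 3 lysosomal proteases were lower in the antibody sections, in a test that called 8.81% of all genes lower and 11.8% in either direction. Of 9 lysosomal antigen processing genes tested, 3 were lower and 0 higher in the antibody sections: Lgmn, an asparaginyl endopeptidase, Ctsh, a lysosomal aminopeptidase, and Ctsb, a lysosomal cysteine protease. Their log2 fold changes and adjusted p by edgeR's quasi-likelihood test were Lgmn (-1.34 ± 0.20, adjusted p = 0.022), Ctsh (-1.10 ± 0.16, adjusted p = 0.022) and Ctsb (-1.22 ± 0.27, adjusted p = 0.0363). Of 3 further class II subunits tested, H2-Ob, the partner of H2-Oa in H2-O, was higher (0.90 ± 0.22, adjusted p = 0.0445, edgeR's quasi-likelihood test). Of 6 genes of the RFX, NF-Y and CREB factors that bind class II promoters, Nfya was lower, and of 4 turnover genes March1, a ubiquitin ligase that removes class II from the surface, was lower: Nfya (-0.89 ± 0.16, adjusted p = 0.0256) and March1 (-0.71 ± 0.15, adjusted p = 0.0352), edgeR's quasi-likelihood test. No class I presentation gene (0 of 9) and no costimulation gene (0 of 6) was called. Of 8 interferon gamma signalling genes Ifng was higher (1.07 ± 0.16, adjusted p = 0.0219, edgeR's quasi-likelihood test). Of 12 dendritic cell genes 2 were higher and 0 lower: Clec9a (1.20 ± 0.26, adjusted p = 0.0359) and Irf4 (0.88 ± 0.21, adjusted p = 0.0437), edgeR's quasi-likelihood test. The medians of the lists were -0.74 (lysosomal), 0.037 (class I) and 0.37 (dendritic cell), beside 0.085 over all genes.

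Position was read from a leukocyte score. Each spot of at least 5000 UMIs was thinned to 5000, the UMIs of 10 macrophage and 12 T cell genes were summed, and a spot with 24 or more was called leukocyte-rich, the smallest count that at most 10% of spots reach when every section weighs the same. None of the 9 genes is in the panels. Leukocyte-rich spots numbered 63 of 2499 and 105 of 2548 in the antibody sections, against 280 of 2492 and 630 of 3048 in the ICI-alone sections. The shares were 2.52% (95% Wilson interval 1.98 to 3.21) and 4.12% (3.42 to 4.96) in the antibody sections, against 11.2% (10.1 to 12.5) and 20.7% (19.3 to 22.1) in the ICI-alone sections, with intervals that cover counting error only. Both antibody sections had smaller shares than both ICI-alone sections. Macrophage genes make up most of the score: their own 10% threshold was 23 UMIs, against 3 for the T cell genes. T cell-rich spots reached the T cell threshold and not the macrophage one. They made up 10.6 and 8.36% in the antibody sections, against 5.66 and 3.18% in the ICI-alone sections, the reverse order.

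Leukocyte-rich spots held a large part of the class II transcripts where such spots were many. The share of Cd74 UMIs that lay in leukocyte-rich spots was 10.8 and 12.6% in the antibody sections, against 24.8 and 40.7% in the ICI-alone sections. The share of Ctss UMIs was 15.3 and 14.4% in the antibody sections, against 33.0 and 53.1% in the ICI-alone sections. For the UMIs of all genes it was 3.17 and 5.14% in the antibody sections, against 13.5 and 23.9% in the ICI-alone sections, so both genes exceeded that share in every section. T cell-rich spots held 33.2 and 20.02% of Cd74 UMIs in the antibody sections, against 9.93 and 3.71% in the ICI-alone sections. In the antibody sections this exceeded the leukocyte-rich share, and in the ICI-alone sections it fell below. The antibody sections had more T cell-rich than leukocyte-rich spots, so their other spots include T cell-rich ones. Summed over H2-Aa, H2-Ab1, H2-Eb1 and Cd74 and scaled to each spot's own total, the median leukocyte-rich spot had 21250.4 and 19725 CPM in the antibody sections, against 19199 and 18429 in the ICI-alone sections, and the median other spot had 3214 and 5589 CPM in the antibody sections, against 7306 and 7785 in the ICI-alone sections. The medians of leukocyte-rich spots were higher in both antibody sections, and those of other spots were lower in both.

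**Figure D2:**
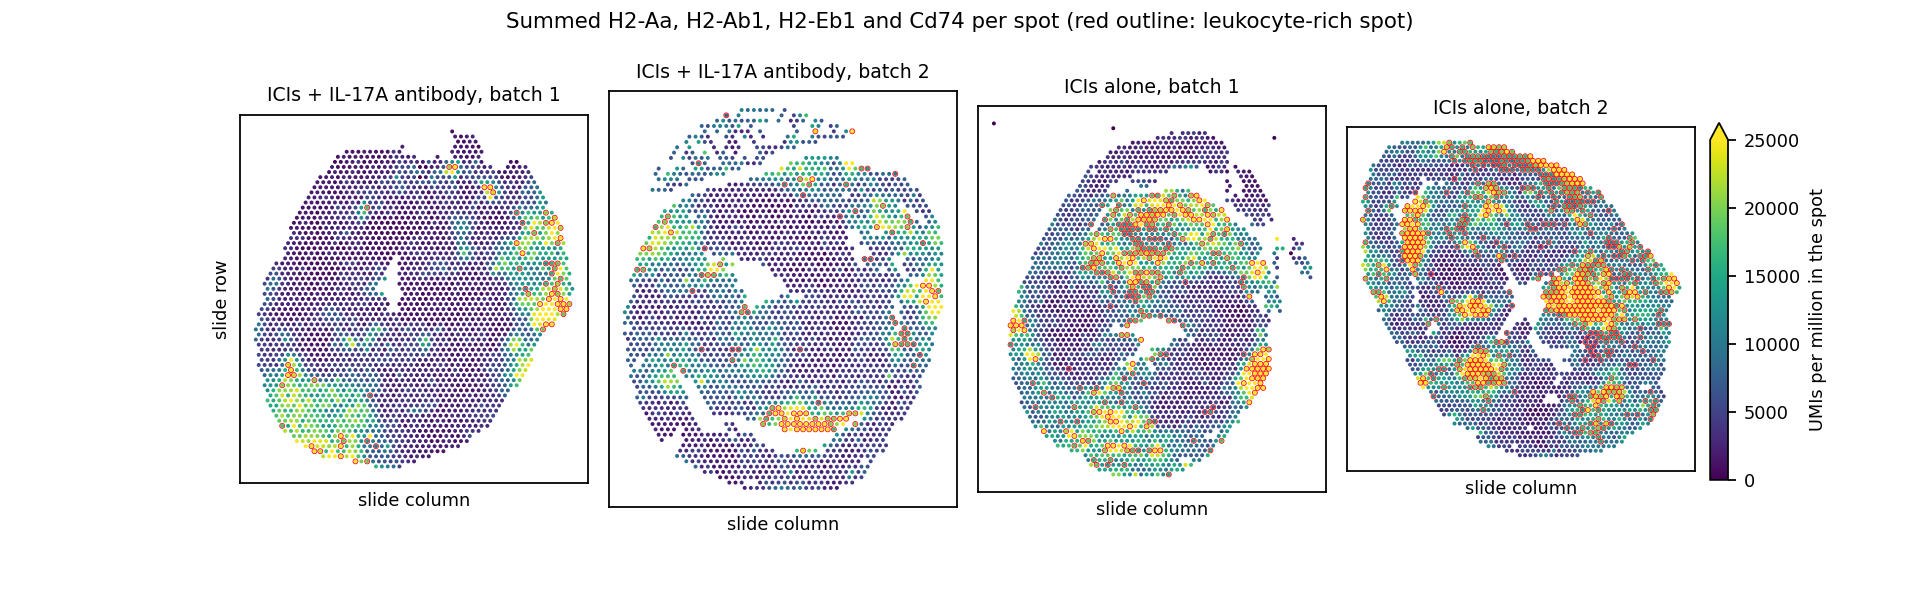
Each section drawn as its grid of spots, slide column against slide row, coloured by the summed level of H2-Aa, H2-Ab1, H2-Eb1 and Cd74 in CPM, with leukocyte-rich spots outlined in red and the antibody sections placed before the ICI-alone sections. Outlined spots number 63 and 105 in the antibody sections and 280 and 630 in the ICI-alone sections, and the high levels gather around them.

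All 9 genes were higher in leukocyte-rich spots than in the other spots of the same sections, with the section as a block. Ctss had 1889 and 1007 CPM in the leukocyte-rich spots of the antibody sections and 1926 and 2436 in those of the ICI-alone sections, against 431, 366, 679.9 and 742 in the other spots of the same sections in the same order, a log2 fold change of 1.70 ± 0.16 (adjusted p = 0.000101, edgeR's quasi-likelihood test). Cd74 had 12735 and 11552 CPM in the leukocyte-rich spots of the antibody sections and 12262 and 11661 in those of the ICI-alone sections, against 4349, 4903, 6491 and 5848 in the other spots of the same sections in the same order (1.17 ± 0.22, adjusted p = 0.00223, edgeR's quasi-likelihood test). In every section both genes were higher in the leukocyte-rich spots. H2-Ab1 was 1.20 ± 0.17, H2-Aa 1.06 ± 0.18 and H2-Eb1 0.92 ± 0.11, H2-DMb1 was 1.17 ± 0.12 and H2-DMa 0.99 ± 0.099, H2-Oa was 1.14 ± 0.18 and Ciita 1.08 ± 0.11 on the log2 scale. Their adjusted p by edgeR's quasi-likelihood test ran from 0.000117 to 0.00158. The call of 9 of 9 stands beside 19.5% of the 15738 genes tested, and it held under each alternative run, including leaving out each section, except that with only genes of at least 10 CPM tested H2-Oa was not tested and the other 8 were called. The panels that chose the spots hold macrophage markers, and macrophages are known to express these genes.

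In the same contrast, all 3 further class II subunits were higher (H2-DMb2, H2-Ob and H2-Eb2), as were 6 of 9 lysosomal genes, 5 of 6 costimulation genes, 8 of 9 class I genes and 10 of 12 dendritic cell genes, with 1 dendritic cell gene lower (Zbtb46). The largest lysosomal changes were Ctsz (1.31 ± 0.14, adjusted p = 0.000159) and Ctsh (1.18 ± 0.094, adjusted p = 6.31e-05), and among costimulation genes Cd80 (1.14 ± 0.11, adjusted p = 0.00011) and Cd86 (1.09 ± 0.11, adjusted p = 0.000113) had the smallest p, all by edgeR's quasi-likelihood test. Of the promoter-binding factors 2 of 6 were higher (Nfya and Creb1) and Rfxank was lower (-0.66 ± 0.13, adjusted p = 0.00279, edgeR's quasi-likelihood test). Cardiomyocyte genes were lower (5 of 5) and endothelial genes were lower (5 of 6), B cell genes were higher in 1 of 8, and the summed dendritic cell level was 985 and 860.0 CPM in leukocyte-rich spots of the antibody sections and 643 and 610.0 in those of the ICI-alone sections. Their part in the class II levels was not tested.

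Within the leukocyte-rich spots the treatment comparison called 0 of the 9 genes and 0% of the 12779 genes tested, although 2358 genes had an unadjusted p under 0.05, and DESeq2 called 272 genes. Ctss had 2123 and 1093 CPM in the antibody sections, against 1948 and 2651 in the ICI-alone sections (-0.52 ± 0.40, adjusted p = 0.532, edgeR's quasi-likelihood test), and antibody replicate 1 overlapped the ICI-alone sections. Cd74 had 14309.6 and 12536 CPM in the antibody sections, against 12402 and 12689 in the ICI-alone sections (0.098 ± 0.47, adjusted p = 0.935, edgeR's quasi-likelihood test), a difference smaller than its standard error. Ciita had 215 and 307 CPM in the antibody sections, against 188 and 160.4 in the ICI-alone sections, higher in both antibody sections (0.58 ± 0.22, adjusted p = 0.239, edgeR's quasi-likelihood test). H2-Eb1 likewise was higher in both, with 35.9 and 42.3 CPM in the antibody sections, against 27.3 and 28.8 in the ICI-alone sections (0.48 ± 0.17, adjusted p = 0.213, edgeR's quasi-likelihood test). The other 5 genes lay between -0.36 (H2-DMa) and 0.46 (H2-Oa), and the 95% intervals were wide, as that of Cd74 shows (-1.05 to 1.24). In these spots the summed dendritic cell markers were 1107 and 933 in the antibody sections, against 650.1 and 664 in the ICI-alone sections, and the lysosomal genes were 13767 and 10469 in the antibody sections, against 18569.7 and 20796 in the ICI-alone sections, with 0 of 12 and 0 of 9 called.

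In the other spots Ctss was the only one of the 9 called. These spots hold most of the UMIs of each whole section, so this is not an independent test. It had 395 and 338 CPM in the antibody sections, against 642 and 695 in the ICI-alone sections, a log2 fold change of -0.87 ± 0.21 (adjusted p = 0.0437, edgeR's quasi-likelihood test). Both antibody sections lay below both ICI-alone sections. The share of all 18445 genes called there was 10.7%, and 8.04% were lower, so 1 of 9 is near that share. The call was lost without antibody replicate 1 (-0.99, adjusted p = 0.143), without antibody replicate 2 (-0.76, adjusted p = 0.242) and without ICI-alone replicate 2 (-0.80, adjusted p = 0.0852), all by edgeR's quasi-likelihood test. It was also lost with library-size scaling (adjusted p = 0.0561) and under 3 further settings given in the closing section, with adjusted p from 7.03e-05 to 0.242 over all alternatives. H2-Aa had 1523 and 1778 CPM in the antibody sections, against 3295 and 2601 in the ICI-alone sections (-0.84 ± 0.30, adjusted p = 0.0987, edgeR's quasi-likelihood test), without overlap. Cd74 had 3990.0 and 4536 CPM in the antibody sections, against 6132 and 5475 in the ICI-alone sections (-0.45 ± 0.33, adjusted p = 0.357, edgeR's quasi-likelihood test). The remaining 6 ran from -0.55 (H2-Ab1) to 0.29 (H2-Eb1). With the batch block, 3377 genes were called in place of 1978, again with Ctss alone among the 9.

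Whether the treatment difference depended on the spot class was tested as an interaction, the log2 fold change in leukocyte-rich spots minus that in other spots. None of the 9 passed (0 of 9, beside 0.0723% of 17976 genes, 13 genes, with 1728 at an unadjusted p under 0.05 and 42 called by DESeq2). Estimates ran from -0.017 to 0.42, that of H2-DMa to that of Cd74 (0.42 ± 0.35, adjusted p = 0.76, edgeR's quasi-likelihood test). For Ctss the interaction was 0.17 ± 0.30 with a 95% interval of -0.50 to 0.84. The Ctss differences in leukocyte-rich and in other spots were therefore not shown to differ from each other.

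**Figure D3:**
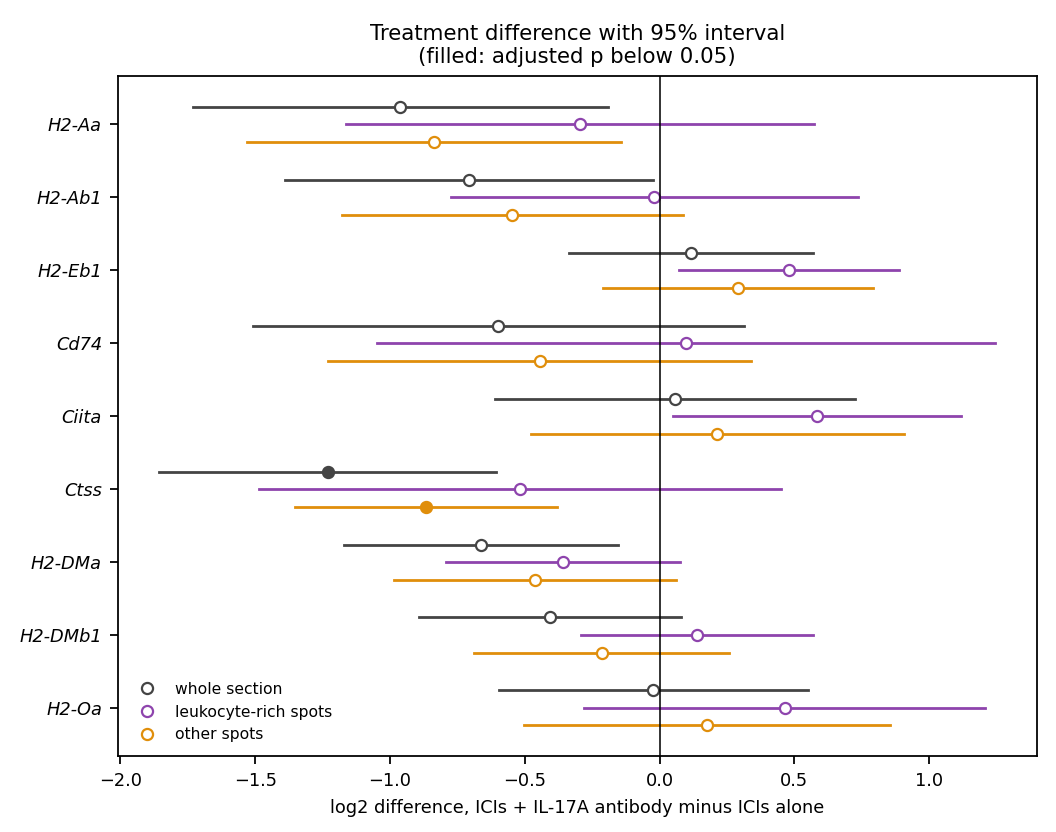
Log2 fold change of antibody over ICI alone with its 95% interval for each of the 9 genes, in whole sections, leukocyte-rich spots and other spots, with filled points for adjusted p under 0.05. The 2 filled points are Ctss in whole sections, at -1.23, and Ctss in other spots, at -0.87.

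Cd74 levels were lower at each step away from the leukocyte-rich spots, except in ICI-alone replicate 2, which had 3025 CPM at 5 steps and 3165 CPM at 6 or more. Steps were counted on the hexagonal grid, in which a spot has up to 6 neighbours. Levels by ring are scaled by library size alone, and their differences were not tested ring by ring. Cd74 in the leukocyte-rich spots themselves was 14794 and 12809 in the antibody sections, against 11848 and 12119 in the ICI-alone sections (CPM). At 3 steps it was 6159.6 and 5432 in the antibody sections, against 3835 and 3484 in the ICI-alone sections, and at 6 or more steps it was 1939 and 2468 in the antibody sections, against 2186 and 3165 in the ICI-alone sections. At 3 steps both antibody sections were above both ICI-alone sections, and at 6 or more they overlapped. H2-DMb1 showed the same order, with 220.3 and 225 in the antibody sections, against 114 and 103 in the ICI-alone sections at 3 steps and 58.2 and 104 in the antibody sections, against 53.4 and 95.6 in the ICI-alone sections at 6 or more. Ciita was 222 and 314 in the antibody sections, against 179.8 and 153 in the ICI-alone sections at 0 steps and 107 and 152 in the antibody sections, against 58.6 and 41.5 in the ICI-alone sections at 3 steps. Antibody replicate 2 held the highest Ciita level in each of these rings. Ctss at 3 steps was 599 and 398 in the antibody sections, against 301 and 333 in the ICI-alone sections, and at 6 or more steps 111 and 138 in the antibody sections, against 143 and 347 in the ICI-alone sections, where both antibody sections were lower.

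With library-size scaling, Cd74 and H2-DMb1 were lower in both antibody sections over whole sections and higher in both in each ring from 0 to 5 steps. The sum over the spots 1 to 5 steps away differs from the single rings in pooling, whatever the scaling. At 1 step lay 185 and 275 spots of the antibody sections, against 652 and 961 of the ICI-alone sections. With library-size scaling the log2 fold change of Cd74 in this sum was 0.14. What pooling and scaling each changed was not tested. With TMM scaling the order seen ring by ring did not hold in this sum. There Cd74 had 6815 and 5639.9 CPM in the antibody sections, against 6969 and 5917 in the ICI-alone sections and H2-DMb1 had 250.5 and 235 CPM in the antibody sections, against 237 and 191 in the ICI-alone sections, and both genes overlapped between the groups. Cd74, Ciita, H2-DMb1 and H2-Eb1 were higher in both antibody sections than in both ICI-alone sections in each ring from 0 to 5 steps (4 of 9 genes by library-size scaling, beside 7.15% of 12309 genes). Ring by ring, 5 of 9 were higher without overlap at 0 steps (36% of all genes), 5 at 1 step (37.3%), 8 at 2 steps (36.2%), 8 at 3 steps (33.3%), 9 at 4 steps (28.9%) and 6 at 5 steps (25.4%). At 6 or more steps 0 were higher (20%) and 2, Ctss and H2-Aa, were lower (19.6%). At 0 steps 2, H2-DMa and H2-Aa, were lower (16.2%). The count of spots differed by ring: 1538 and 885 spots of the antibody sections lay at 6 or more steps, against 506 and 169 of the ICI-alone sections. T cell markers were also higher at 3 steps, with 243 and 163 in the antibody sections, against 61.8 and 70.7 in the ICI-alone sections, and so was a panel of 9 interferon gamma target genes, with 8079.8 and 9335 in the antibody sections, against 4849.8 and 2931 in the ICI-alone sections, while macrophage markers were 1765 and 1986 in the antibody sections, against 1973 and 2095 in the ICI-alone sections. Their part in the class II levels was not tested.

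**Figure D4:**
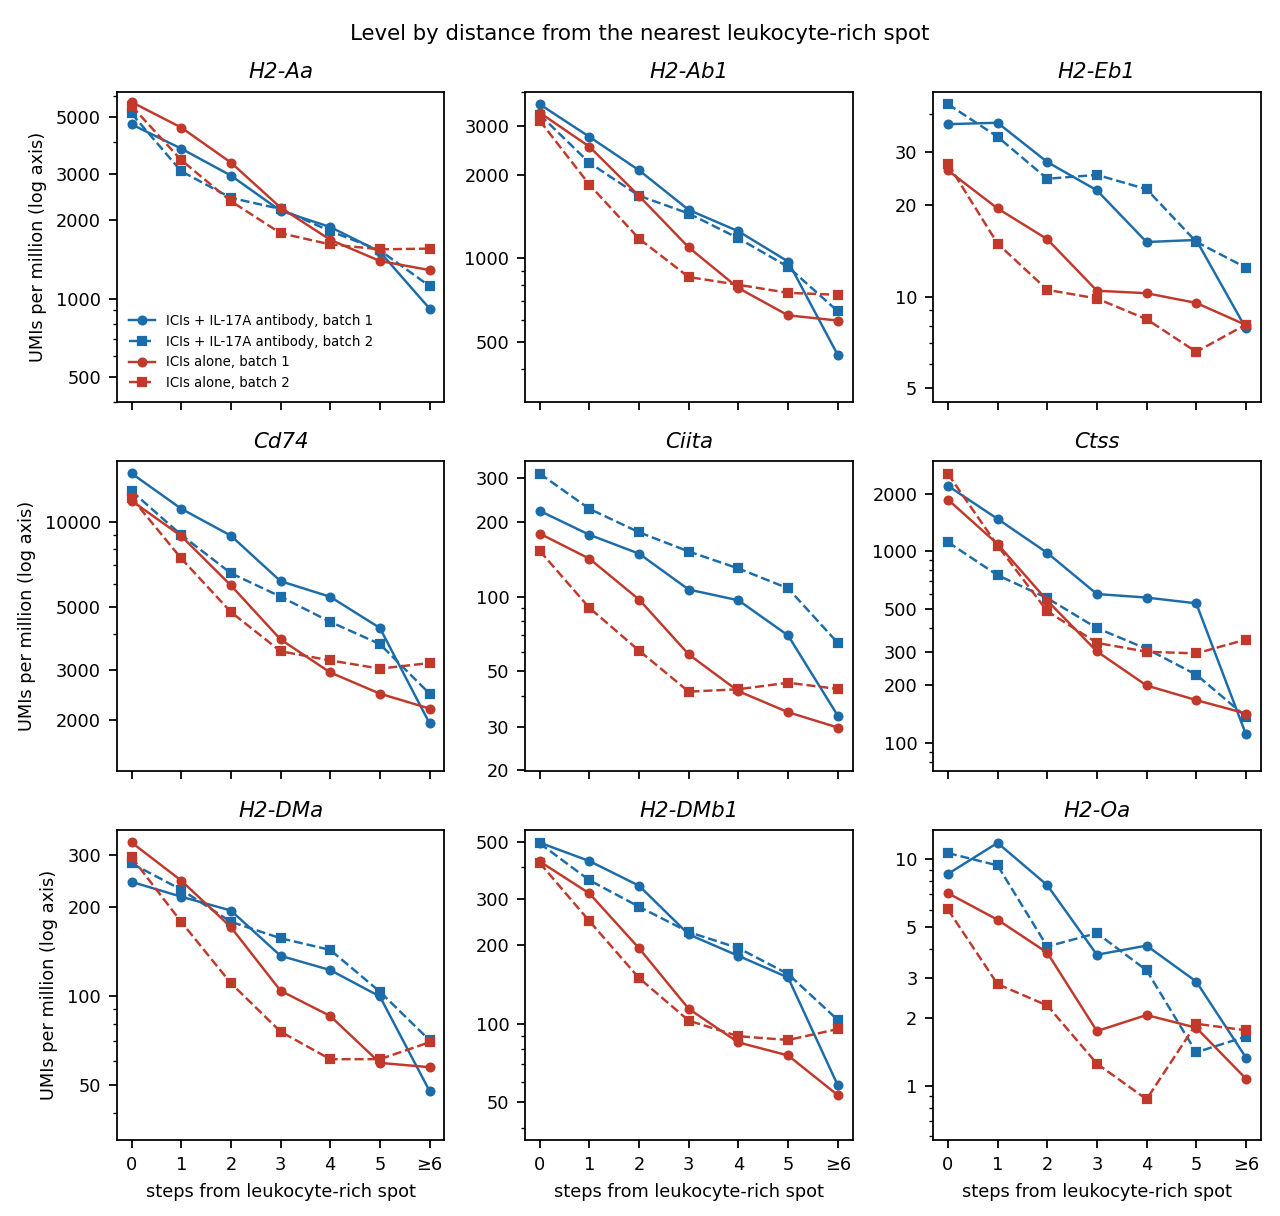
Level in CPM (log axis, scaled by library size) of each of the 9 genes by distance in steps from the nearest leukocyte-rich spot, 1 line per section. At 3 steps Cd74 reads 6159.6 and 5432 in the antibody sections, against 3835 and 3484 in the ICI-alone sections, and at 6 or more steps its lines overlap between the groups.

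The spots outside the leukocyte-rich class were then tested in 2 belts, added after the rings had been seen. In spots 1 to 5 steps away, 0 of the 9 genes passed, beside 3.57% of 17714 genes. H2-Eb1 came nearest, with 22.5 and 23.5 CPM in the antibody sections, against 17.1 and 12.7 in the ICI-alone sections (0.63 ± 0.18, adjusted p = 0.0724, edgeR's quasi-likelihood test), and it passed without ICI-alone replicate 1 (0.86, adjusted p = 0.0498, in a range of 0.0498 to 0.884 over its alternatives). Ciita had 114 and 155 CPM in the antibody sections, against 111 and 73.2 in the ICI-alone sections (0.55 ± 0.24, adjusted p = 0.153, edgeR's quasi-likelihood test). Both genes were higher in both antibody sections. Cd74 was -0.049 ± 0.32 here under TMM scaling, and 0.14 under library-size scaling, so its direction depended on the scaling. Scaling by library size moved the median of all genes by 0.18 in this belt, 0.11 in leukocyte-rich spots, 0.10 in other spots, 0.19 in the contrast of both and 0.12 in the interaction. Of 3 further class II subunits, H2-Ob and H2-DMb2 were higher in this belt: H2-Ob (1.42 ± 0.22, adjusted p = 0.0488) and H2-DMb2 (0.93 ± 0.15, adjusted p = 0.0488), by edgeR's quasi-likelihood test. Of 9 class I genes Nlrc5, the class I counterpart of Ciita, was higher, and of 6 costimulation genes Cd40 was: Nlrc5 (0.71 ± 0.14, adjusted p = 0.0492) and Cd40 (0.89 ± 0.16, adjusted p = 0.0488), by edgeR's quasi-likelihood test. Of 8 interferon gamma signalling genes 2, Ifng and Socs1, were higher, and of 9 lysosomal genes Lgmn was lower: Ifng (1.97 ± 0.27, adjusted p = 0.0453), Socs1 (1.26 ± 0.18, adjusted p = 0.0453) and Lgmn (-1.21 ± 0.16, adjusted p = 0.0453), by edgeR's quasi-likelihood test. With the batch block 0 genes were called in this belt, against 632 without it. In spots 6 or more steps away, 0 of 9 genes and 0% of 12807 genes were called (967 at an unadjusted p under 0.05, 82 by DESeq2, 168 with the block), and adjusted p of the 9 ran from 0.66 to 0.958 with edgeR's quasi-likelihood test.

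Of the 9 genes, Ctss was called higher in macrophage-rich than in T cell-rich spots and the other 8 did not pass. Macrophage-rich and T cell-rich spots are those among the top 10% for one of the panels and not for the other. Ctss had 2939 and 854 CPM in the macrophage-rich spots of the antibody sections and 2056 and 2610.1 in those of the ICI-alone sections, against 1326, 867, 1048 and 1055 in the T cell-rich spots of the same sections in the same order (0.86 ± 0.18, adjusted p = 0.0102, edgeR's quasi-likelihood test). It was higher in the macrophage-rich spots of 3 sections, while antibody replicate 2 had nearly equal values in both kinds of spot, the macrophage-rich one slightly lower. Called genes made up 5.08% of the 11900 tested, 3.18% higher. The panels that chose the spots hold macrophage and T cell markers, and macrophages are known to express Ctss. Macrophage-rich spots numbered 16 and 47 in the antibody sections, against 222 and 564 in the ICI-alone sections. The Ctss call was lost without antibody replicate 1 (0.75, adjusted p = 0.109), ICI-alone replicate 1 (0.83, adjusted p = 0.12) or ICI-alone replicate 2 (0.69, adjusted p = 0.24), all by edgeR's quasi-likelihood test. Over all alternatives its adjusted p ranged from 1.08e-06 to 0.275. Without antibody replicate 2 it held, and H2-DMa was called as well (0.40, adjusted p = 0.0177). For Cd74 the contrast was 0.22 ± 0.19 with a 95% interval of -0.18 to 0.62, and for H2-Aa it was 0.079 ± 0.19 (-0.32 to 0.48), so the I-A chain and the invariant chain did not differ detectably between the 2 kinds of spot. H2-Oa had no UMI in the macrophage-rich spots of antibody replicate 1. Of 9 lysosomal genes 6 were higher in macrophage-rich spots, among them Ctsl (1.09 ± 0.16, adjusted p = 0.00085) and Ctsb (0.81 ± 0.15, adjusted p = 0.00503), while Ccr7, which marks migratory dendritic cells and naive T cells, and Ifng were lower: Ccr7 (-1.47 ± 0.20, adjusted p = 0.000448) and Ifng (-0.74 ± 0.17, adjusted p = 0.0199), by edgeR's quasi-likelihood test.

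Outside the leukocyte-rich spots, those in the top 10% for 9 interferon gamma target genes (Iigp1, Igtp, Irgm1, Irgm2, Gbp2, Gbp3, Gbp5, Gbp7 and Cxcl9) were set against the rest, and 4 of the 9 class II genes were higher. Ciita had 135 and 172 CPM in the interferon-high spots of the antibody sections and 146 and 72.4 in those of the ICI-alone sections, against 62.2, 122, 88.4 and 67.7 in the interferon-low spots of the same sections in the same order (0.64 ± 0.14, adjusted p = 0.0134, edgeR's quasi-likelihood test). It was higher in the interferon-high spots of each section. Called as well were H2-DMa (0.60 ± 0.12, adjusted p = 0.0088), H2-DMb1 (0.63 ± 0.14, adjusted p = 0.0154) and H2-Eb1 (0.45 ± 0.14, adjusted p = 0.0462), by edgeR's quasi-likelihood test. The H2-Eb1 call was the least stable of the 4 and passed under 7 of 16 alternatives, with adjusted p from 0.0243 to 0.198. It was lost with no filter on low counts, with a filter at 10 CPM, without atrial-rich spots, at a 5% and a 20% threshold, with no thinning, without antibody replicate 1 and without either of the ICI-alone replicates. H2-DMb1 passed under 13 of 16, Ciita under 15 and H2-DMa under all 16. Background was 25.4% of 13615 genes in either direction and 12.3% higher. The spots were chosen by interferon gamma targets, and Ciita is itself known to respond to interferon gamma. These calls therefore describe genes that vary with the panel and are no separate finding on position. Cd74 had 6336 and 5671 CPM in the interferon-high spots of the antibody sections and 8271 and 4935 in those of the ICI-alone sections, against 3932, 4669, 5679.6 and 5486 in the interferon-low spots of the same sections in the same order (0.34 ± 0.17, adjusted p = 0.184, edgeR's quasi-likelihood test). In ICI-alone replicate 2 the order was turned for Cd74, H2-Aa and H2-Ab1, each lower in its 48 interferon-high spots. Members called numbered 2 without antibody replicate 1 (Ciita and H2-DMa), 1 without ICI-alone replicate 1 (H2-DMa) and 5 without ICI-alone replicate 2, where H2-Ab1 and Ctss came in (0.60 and 0.44) and H2-Eb1 dropped out. Interferon-high spots were 271 and 482 in the antibody sections, against 105 and 48 in the ICI-alone sections.

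Other genes of antigen presentation were higher in interferon-high spots as well, with the same limit that interferon gamma targets chose these spots. Class I presentation genes were higher in 8 of 9, with Nlrc5 (0.75 ± 0.081, adjusted p = 0.00272) and Tapbp (0.70 ± 0.097, adjusted p = 0.00368) at the smallest p, and interferon gamma signalling genes in 5 of 8, with Socs1 (1.11 ± 0.12, adjusted p = 0.00258) and Jak2 (0.67 ± 0.071, adjusted p = 0.00258), by edgeR's quasi-likelihood test. Rfx5, a subunit of the RFX complex on class II promoters, was the only one of 6 promoter-binding genes called (0.52 ± 0.15, adjusted p = 0.0389, edgeR's quasi-likelihood test). Costimulation genes were higher in 3 of 5, with Cd40 (1.04 ± 0.13, adjusted p = 0.00291), and dendritic cell genes in 5 of 12, with Irf8 (0.86 ± 0.095, adjusted p = 0.00272), by edgeR's quasi-likelihood test. Cardiomyocyte genes were lower in 4 of 5. The medians were 0.42 over the 9 class II genes, 0.70 over class I genes and -0.0075 over all genes.

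At the tissue border, the spots with a neighbouring grid position off the tissue, class II genes did not pass a test against interior spots (0 of 9, beside 1.8% of 14261 genes). Changes ran from -0.078 to 0.25 on the log2 scale. The nearest was H2-Eb1 (0.20 ± 0.083, adjusted p = 0.231, edgeR's quasi-likelihood test), and Cd74 was 0.13 ± 0.11 with a 95% interval of -0.13 to 0.39. The share of leukocyte-rich spots that were border spots was 27.0 and 39.0% in the antibody sections, against 18.2 and 13.2% in the ICI-alone sections, and the border share of all spots was 8.79 and 23.6% in the antibody sections, against 16.9 and 13.9% in the ICI-alone sections. The leukocyte-rich share was the higher in both antibody sections and in ICI-alone replicate 1, and the lower in ICI-alone replicate 2.

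**Figure D5:**
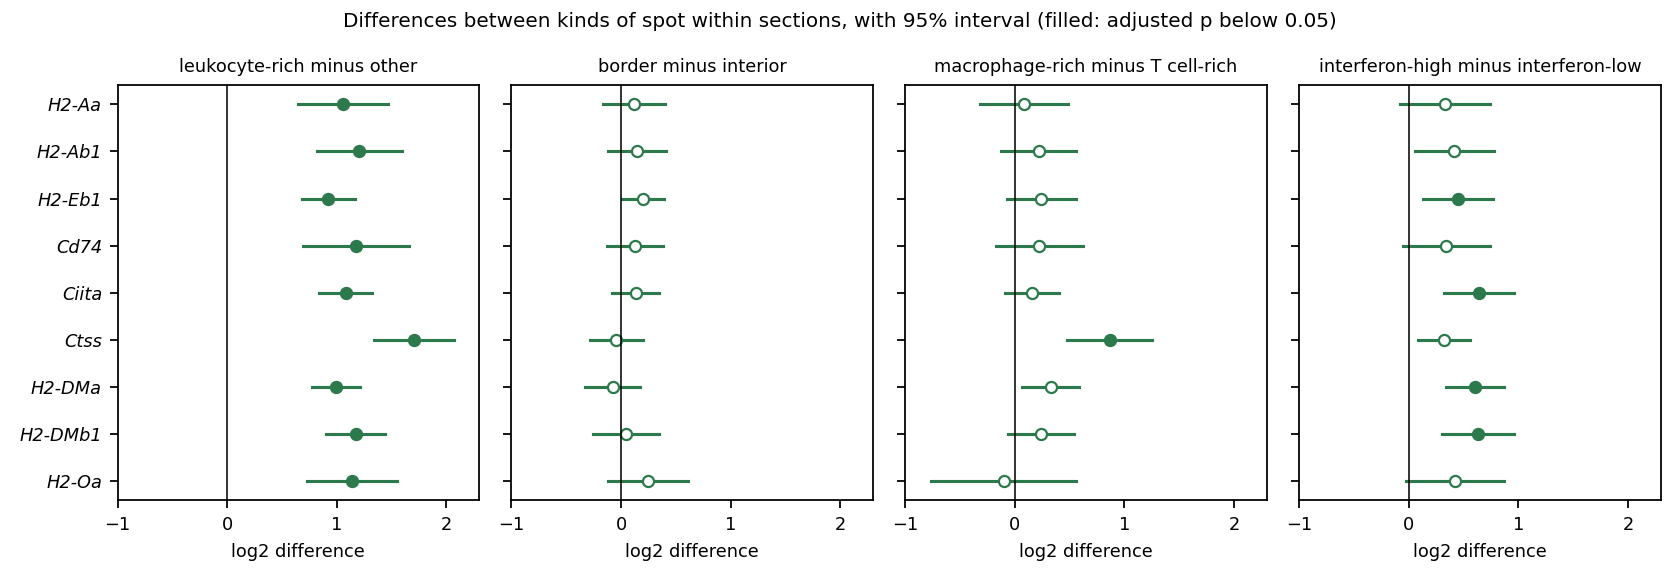
Log2 fold change with its 95% interval for each of the 9 genes in 4 contrasts within sections: leukocyte-rich over other spots, border over interior spots, macrophage-rich over T cell-rich spots and interferon-high over interferon-low spots, with filled points for adjusted p under 0.05. All 9 points are filled and above 0 in the leukocyte-rich contrast, 4 in the interferon contrast, 1 in the macrophage contrast and 0 at the border.

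Ratios between pairs of the 9 genes were set side by side across sections. A ratio of the UMIs of 2 genes says nothing on which is the more abundant, since capture differs by gene, but it can be set across sections. The ratios were not tested, and no share over other pairs of genes was computed. H2-Aa over H2-Ab1, the chains of I-A, was 1.58 and 1.53 in the antibody sections, against 1.85 and 1.85 in the ICI-alone sections. Both antibody sections were lower, and they were lower also in leukocyte-rich spots (1.30 and 1.56 in the antibody sections, against 1.69 and 1.75 in the ICI-alone sections) and in other spots (1.61 and 1.52 in the antibody sections, against 1.90 and 1.92 in the ICI-alone sections). H2-DMa over H2-DMb1, the exchanger subunits, was 0.627 and 0.656 in the antibody sections, against 0.819 and 0.716 in the ICI-alone sections, without overlap. H2-Eb1 over H2-Ab1, the beta chains of I-E and I-A, was 0.0144 and 0.0163 in the antibody sections, against 0.00868 and 0.00876 in the ICI-alone sections, higher in both antibody sections. Ciita over Cd74 was 0.0167 and 0.027 in the antibody sections, against 0.0156 and 0.0125 in the ICI-alone sections, higher in both antibody sections, but in leukocyte-rich spots the groups overlapped (0.015 and 0.0245 in the antibody sections, against 0.0152 and 0.0126 in the ICI-alone sections). Ctss over Cd74 was 0.104 and 0.0766 in the antibody sections, against 0.118 and 0.16 in the ICI-alone sections, lower in both antibody sections. Cd74 over H2-Ab1 overlapped, at 4.21 and 3.88 in the antibody sections, against 3.54 and 3.96 in the ICI-alone sections.

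Spot by spot, the class II genes varied together to unequal degrees. For each gene, log levels per spot (UMIs per 10000, plus 1) were correlated with the summed level of H2-Aa, H2-Ab1, H2-Eb1 and Cd74 over all spots of a section, 2503 to 3052 spots, and the 4 values were averaged. The spots of a section share a library and neighbouring spots share cells, so the values are descriptions. Pearson's r was 0.985 for Cd74, 0.932 for H2-Aa and 0.921 for H2-Ab1, which are part of the sum and dominate it. Outside the sum, Ctss had 0.801, H2-DMb1 0.752, H2-DMa 0.673 and Ciita 0.661. The sparse H2-Eb1 had 0.317 though it is part of the sum. By section, Ctss ran at 0.812 and 0.749 in the antibody sections, against 0.849 and 0.794 in the ICI-alone sections, and Ciita at 0.685 and 0.614 in the antibody sections, against 0.733 and 0.612 in the ICI-alone sections. Of 9666 other genes with a mean of at least 0.1 UMI per spot, the 8 most alike by this measure were Tmsb4x (0.849), Cd52 (0.775), Gatm (0.770), Actb (0.770), Mpeg1 (0.750), Ucp2 (0.749), Cxcl16 (0.746) and Lcp1 (0.741). After thinning every spot to 5000 UMIs, 4 of these 8 were again among the first 8.

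The deposited table of Moran's I, the authors' score of how alike neighbouring spots are for a gene, places Cd74 and Ctss far above the median gene. In the authors' deposited table Cd74 had 0.767 and 0.732 in the antibody sections, against 0.775 and 0.718 in the ICI-alone sections, where the median gene had 0.0179 and 0.00869 in the antibody sections, against 0.018 and 0.0155 in the ICI-alone sections. By rank in the authors' deposited table Cd74 stood at 73 and 3 in the antibody sections, against 62 and 82 in the ICI-alone sections. Ctss had 0.756 and 0.576 in the antibody sections, against 0.776 and 0.706 in the ICI-alone sections in the authors' deposited table, lowest in antibody replicate 2. The sparse genes were lower in the authors' deposited table, with H2-Eb1 at 0.161 and 0.0758 in the antibody sections, against 0.12 and 0.10 in the ICI-alone sections and H2-Oa at 0.077 and 0.0536 in the antibody sections, against 0.0606 and 0.0289 in the ICI-alone sections. The sections differ in depth, and the score was not tested between them.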

How the data were processed

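The members and gene lists were chosen with earlier results of these data known. Raw UMI counts for every gene in every tissue spot are what the authors deposited. Space Ranger 2.1.0 made them, per the file headers, and the submitters' processing notes add mm10 and Seurat 5.1.0. No source used here names the probe set. Barcodes, feature names and grid positions are the other deposited files used, and deposited image scale factors were not used. The authors also deposited a score, Moran's I, with an adjusted p-value per gene, by a method not stated. Each matrix has 19465 gene rows, and the 11 repeated symbols include no member.

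Counts were summed per section and spot class (at least 10 spots), filtered with filterByExpr, scaled with TMM and put to the quasi-likelihood F test (edgeR 4.0.16, limma 3.58.1 and R 4.3.3). P-values were adjusted by Benjamini-Hochberg over all genes, with calls at 0.05. Contrasts between spot classes had the section as a block. Panel genes that define a class were left out of tests of that class. The common biological coefficient of variation of whole sections was 17.0%. The F statistic and the fold change gave each standard error. Library size limits precision: 3 UMIs are 0.0627 and 0.0909 CPM in the antibody sections, against 0.041 and 0.0453 in the ICI-alone sections. The whole-section test and the contrast of leukocyte-rich with other spots were tried on simulated counts. These were drawn with the spread fitted to these same sections, so they cannot show whether that spread is right. Spots were handled in Python 3.11.15 (numpy 2.4.6, scipy 1.17.1, pandas 2.3.3, matplotlib 3.10.9).

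The text names all 9 members, listed genes that passed a test (at most 4 per list and test, by smallest p) and the 8 most alike genes. The labels' batch number pairs the sections across groups. The difference between the batches was only weakly correlated between the groups (r = 0.175 across 18817 genes, which are not independent). A fit with batch as a block was also run. Further settings tried were DESeq2 1.42.0, other scalings and filters, leaving out each section, other thresholds, panels and thinning depths, equal totals (33005923 UMIs) and leaving out shallow or atrial-rich spots. The 2 belts around leukocyte-rich spots, and atrial-rich spots counted without Nppa, were added after seeing the data.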

Additional observations from a re-analysis of the deposited data

How the results depend on the processing

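Of 1265 recomputed fold changes of the 9 genes, 1159 kept direction and side of the threshold, 29 fell short of it, 20 newly passed it and 57 changed sign. Members called in leukocyte-rich against other spots stayed at 9 under the alternatives, except at 8 with a filter at 10 CPM, which leaves H2-Oa untested. DESeq2 called 17.2% of all genes lower in whole sections and 16.4% in other spots. H2-Eb1 and H2-Oa had the fewest UMIs of the 9 genes, so their levels are the least precise. Why they were low was not tested. The probe set is not named, its match to FVB/NJ sequence is unknown, and no I-E protein was measured. The cause of the changes that follow was not tested. The numbers that come first are genes called at an adjusted p of 0.05, over all genes.

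For whole sections the 2229 genes called became 821 with a filter at 10 CPM, 3839 with the batch as replicate block and 1480 with no atrial-rich spots, and 329 to 4479 without 1 section. For leukocyte-rich spots the 0 genes called became 28 with no filter, 272 with DESeq2 and 21 with the T cell panel alone, and 0 to 84 without 1 section. For other spots the 1978 genes called became 460 with a filter at 10 CPM, 2988 with DESeq2 and 3377 with the batch as replicate block, and 69 to 3262 without 1 section. For leukocyte-rich against other spots the 6235 genes called became 4155 to 5963 without 1 section. For the interaction the 13 genes called became 0 with DESeq2's size factors in edgeR, 47 with library-size scaling, 23 with no filter, 0 with a filter at 10 CPM, 42 with DESeq2, 45 with no atrial-rich spots, 83 with a 5% threshold, 0 with a 20% threshold, 0 with thinning to 2000 UMIs, 0 with no thinning, 102 with the macrophage panel alone, 0 with the T cell panel alone and 34 with no atrial-rich spots counted without Nppa, and 2 to 934 without 1 section. For border against interior the 256 genes called became 474 with library-size scaling, 532 with no filter, 96 with a filter at 10 CPM, 564 with DESeq2 and 11 with a border of 2 steps, and 36 to 963 without 1 section. For macrophage-rich against T cell-rich spots the 605 genes called became 280 with DESeq2, 0 with a 5% threshold, 934 with a 20% threshold, 207 with thinning to 2000 UMIs and 107 with no thinning, and 104 to 1801 without 1 section. For interferon-high against interferon-low spots the 3452 genes called became 1352 to 3202 without 1 section. For the belt of 1 to 5 steps the 632 genes called became 332 with library-size scaling, 0 with a filter at 10 CPM, 1826 with DESeq2, 0 with the batch as replicate block, 0 with a 5% threshold, 975 with a 20% threshold, 0 with thinning to 2000 UMIs, 1665 with no thinning, 0 with the macrophage panel alone and 3397 with the T cell panel alone, and 110 to 2100 without 1 section. For spots 6 or more steps away the 0 genes called became 1 with no filter, 82 with DESeq2, 168 with the batch as replicate block, 2 with a 20% threshold and 2 with no thinning, and 0 to 1852 without 1 section.

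Of the 9 class II genes, the count called was 1 in whole sections as reported, 0 with a filter at 10 CPM and 5 with DESeq2, and 0 to 2 without 1 section. It was 1 in other spots as reported, 0 with library-size scaling, 0 with a filter at 10 CPM, 4 with DESeq2, 0 with no atrial-rich spots and 0 with a 20% threshold, and 0 to 1 without 1 section. It was 1 in macrophage-rich against T cell-rich spots as reported, 0 with a 5% threshold, 2 with a 20% threshold, 0 with thinning to 2000 UMIs and 0 with no thinning, and 0 to 2 without 1 section. It was 4 in interferon-high against interferon-low spots as reported, 2 with a 5% threshold, and 1 to 5 without 1 section. It was 0 in the belt of 1 to 5 steps as reported, 2 with the T cell panel alone, and 0 to 1 without 1 section. It was 0 in spots 6 or more steps away as reported, 0 to 1 without 1 section. With the batch as replicate block, which pairs the sections, the members called were 1 in whole sections, 1 in other spots and 0 in leukocyte-rich spots and in both belts, so the block changed no call among the 9.

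Log2 fold changes that turned were these, each with its reported value in brackets, and none of the reported values had passed the threshold. In whole sections H2-Eb1 (0.12) was -0.14 to 0.33 without 1 section, Ciita (0.056) was -0.45 to 0.42 without 1 section, H2-Oa (-0.023) was 0.083 with library-size scaling, 0.23 with equal totals and -0.24 to 0.17 without 1 section. In leukocyte-rich spots H2-Ab1 (-0.019) was 0.091 with library-size scaling, 0.017 with a filter at 10 CPM, 0.042 with a 5% threshold and -0.13 to 0.052 without 1 section, Cd74 (0.098) was -0.063 with no filter and -0.054 to 0.14 without 1 section, H2-DMb1 (0.14) was -0.022 with no filter and -0.075 with the macrophage panel alone. In other spots H2-Eb1 (0.29) was -0.024 with the T cell panel alone, Ciita (0.21) was -0.092 with the T cell panel alone and -0.29 to 0.58 without 1 section, H2-Oa (0.18) was -0.31 with the T cell panel alone and -0.14 to 0.54 without 1 section. In the interaction H2-Eb1 (0.056) was -0.017 with DESeq2's size factors in edgeR, -0.011 with DESeq2, -0.020 with the macrophage panel alone and -0.10 to 0.27 without 1 section, Ctss (0.17) was -0.14 to 0.48 without 1 section, H2-DMa (-0.017) was 0.11 with library-size scaling, 0.0018 with a 20% threshold, 0.012 with thinning to 2000 UMIs, 0.50 with the T cell panel alone and -0.11 to 0.089 without 1 section, H2-Oa (0.11) was -0.079 with the macrophage panel alone, -0.039 with no atrial-rich spots counted without Nppa and -0.074 to 0.34 without 1 section. In border against interior Ctss (-0.042) was 0.031 with library-size scaling, 0.046 with a border of 2 steps, 0.0093 with no atrial-rich spots counted without Nppa and -0.13 to 0.041 without 1 section, H2-DMa (-0.078) was -0.19 to 0.0042 without 1 section, H2-DMb1 (0.042) was -0.041 with no filter and -0.14 to 0.11 without 1 section. In macrophage-rich against T cell-rich spots H2-Aa (0.079) was -0.0047 with thinning to 2000 UMIs and -0.16 to 0.27 without 1 section, H2-Eb1 (0.24) was -0.074 with thinning to 2000 UMIs, Ciita (0.16) was -0.026 with a 5% threshold, -0.012 with thinning to 2000 UMIs and -0.0079 to 0.24 without 1 section, H2-Oa (-0.10) was -0.37 to 0.075 without 1 section. In the belt of 1 to 5 steps Cd74 (-0.049) was 0.14 with library-size scaling, 0.12 with a filter at 10 CPM and -0.23 to 0.079 without 1 section, Ciita (0.55) was -0.032 with the T cell panel alone, H2-DMb1 (0.18) was -0.52 with the T cell panel alone.

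The Ctss call in other spots was also lost with the 10 CPM filter (-0.71, adjusted p = 0.0694), a 20% threshold (-0.78, 0.0533) and no atrial-rich spots (-0.87, 0.0516), all with edgeR's quasi-likelihood test, among alternatives whose adjusted p ranged from 7.03e-05 to 0.242. At a 5% threshold and without thinning, macrophage-rich and T cell-rich spots were compared in 3 sections, and at a 20% threshold so were spots 6 or more steps away. Leaving out a section leaves 1 in its group, which is then assumed to vary like the others.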
